A study of Brassica napus with 355 samples.

Results

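The response of Aviso (Av), an accession of the allopolyploid *Brassica napus*, to prolonged water limitation was described from its RNA-seq libraries. The 23 Av libraries were chosen by their labels alone, as every library of this genotype, out of 354 libraries of 16 accessions with a column of counts. 12 came from water-limited (WL) plants, which were held at 20% of the soil water capacity, and 11 from well-watered (WW) plants, which were held at 100%. Sampling took place at 4 times of day, ZT1, ZT7, ZT13 and ZT19, where ZT counts the hours since dawn, with 3 libraries in each group of 1 treatment and time point, except WW at ZT19 with 2. Each library was made from the apex of the youngest leaf of an individual plant, after about a month of growth in which both groups started fully watered and the WL plants were then allowed to dry down. All plants carried the same genotype and had no other treatment, and a sample held every cell type of the leaf apex, so that fewer cells of a type and less RNA per cell cannot be told apart. The labels gave 2 different growth temperatures and day lengths for these plants, so neither is stated here.

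When water runs short, leaves close their stomata, slow their growth and change the expression of many genes, in large part through the hormone abscisic acid and through signals that do not depend on it. Genes for osmotic protection and for protein stability typically rise, and genes for cell wall growth typically fall. Many of these genes are also controlled by the circadian clock and by sugar status, so the size of a drought response can depend on the time of day. *B. napus* carries the BnA subgenome of *B. rapa* and the BnC subgenome of *B. oleracea*, and most genes have a homoeolog on each.

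Total counts per library were between 16020199 and 22242457 in WL libraries and between 6989222 and 23826711 in WW libraries, and the shallowest was replicate 3 of WW at ZT13. All 23 libraries resembled their own time point most when set against the diel profile of the other accessions, and for all 23 the most similar library of the series was another Av library. Total count, the share of counts on BnA genes and the share held by the 10 most counted genes did not differ between WL and WW beyond the spread of the libraries (exact permutation test within time points, two-sided, adjusted p = 0.38 for each of the 3). A gene was assigned to BnA where its identifier starts with BraA, and to BnC where it starts with Bo. The files do not pair identifiers with gene names or sequences, so genes are named by identifier and described by their annotation only where the study's annotation sheet lists them.

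The first question was which genes differed between WL and WW plants over the whole day. Averaged over the 4 time points, 22 genes rose and 26 fell in WL out of 53880 tested, which is 0.0408% and 0.0483% of them (edgeR quasi-likelihood test, Benjamini-Hochberg adjusted p of 0.01 or less, 0.0891% in both directions together). These 48 genes are called level genes here. Of these, 41 of the 48 differed by more than 2-fold and 19 by more than 4-fold. They were chosen by these same values, and the threshold favours large changes. On simulated counts the test recovered 43 of 100 genes changed by 1 and 86 of 100 changed by 2 (log2). The sizes are thus a description. At a looser adjusted p of 0.05, 819 genes passed (1.52%), 316 higher and 503 lower in WL. Among fits without a single library that kept at least 2 in each group, 234 passed without replicate 2 of WL at ZT19. Without replicate 2 of WL at ZT1, 1652 passed. Without replicate number 3, 23 passed, so the set depended strongly on the libraries used. The replicate block gave 289. Without an adjustment, 14.9% of all genes had a p of 0.05 or less, with 4277 higher and 3737 lower in WL. The number called at 0.01 depended on single libraries, since it was 4 without either WW library of ZT19 and 172 without replicate 2 of WL at ZT1. DESeq2 called 1341 genes, and limma on the log2 FPKM called 27.

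The largest rise was that of BraA04g27320R, a BnA gene on chromosome A04. It had 0.183 to 38.5 CPM (counts scaled to the size of the library) in the 12 WL libraries, with a median of 2.16, against 0 to 0.504 CPM with a median of 0.0753 in the 11 WW libraries. WL libraries lay above WW libraries at each of the 4 time points, but the ranges over all time points overlapped, through replicate 3 of WL at ZT1 at the low end. The highest value, 38.5 CPM, belonged to replicate 2 of WL at ZT13, where the other replicates had 1.81 and 1.19 CPM. The difference was 5.36 ± 0.83 (log2, SE, adjusted p = 0.00682, edgeR).

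BraA02g43370R, a BnA gene on chromosome A02, had the second largest rise. Its CPM were 0.121 to 30.6 with a median of 4.88 in WL libraries, against 0 to 0.709 with a median of 0.35 in WW libraries. At ZT1 the WL values were 29.1, 2.0 and 24.3 CPM and the WW values 0.709, 0.706 and 0.527 CPM. The groups overlapped at ZT19 alone, where WL libraries had 0.121, 2.12 and 5.37 CPM and WW libraries 0 and 0.163 CPM. The difference was 4.71 ± 0.69 (log2, SE, adjusted p = 0.00453, edgeR), and at the separate time points it was smallest at ZT13, with 4.12.

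Among the falls, Bo2g124420, a BnC gene on chromosome C2, had the largest difference. It had 0.122 to 2.53 CPM with a median of 0.619 in WL libraries, against 3.26 to 18.9 CPM with a median of 12.8 in WW libraries. No WL library reached the lowest WW library, replicate 2 of ZT19. The gene was thus low in all 12 WL plants, and the difference was -3.65 ± 0.46 (log2, SE, adjusted p = 0.00292, edgeR). At the separate time points it was between -4.14 (ZT7) and -3.36 (ZT1).

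BraA02g07690R, a BnA gene on chromosome A02, had 0 to 5.51 CPM with a median of 1.41 in WL libraries, against 11.8 to 24.9 CPM with a median of 18.0 in WW libraries. These groups did not overlap either. The WW libraries lay close together at all times of day, and the highest WL value came from replicate 1 of ZT7. The difference was -3.48 ± 0.49 (log2, SE, adjusted p = 0.00391, edgeR). The 4 leading genes kept their direction without any single library or replicate number. Bo2g124420 passed in 22 of these 26 fits (adjusted p of 0.000321 to 0.147, edgeR). BraA02g07690R passed in 16, BraA02g43370R in 12 and BraA04g27320R in 9, each missing the threshold without either WW library of ZT19.

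**Figure D1:**
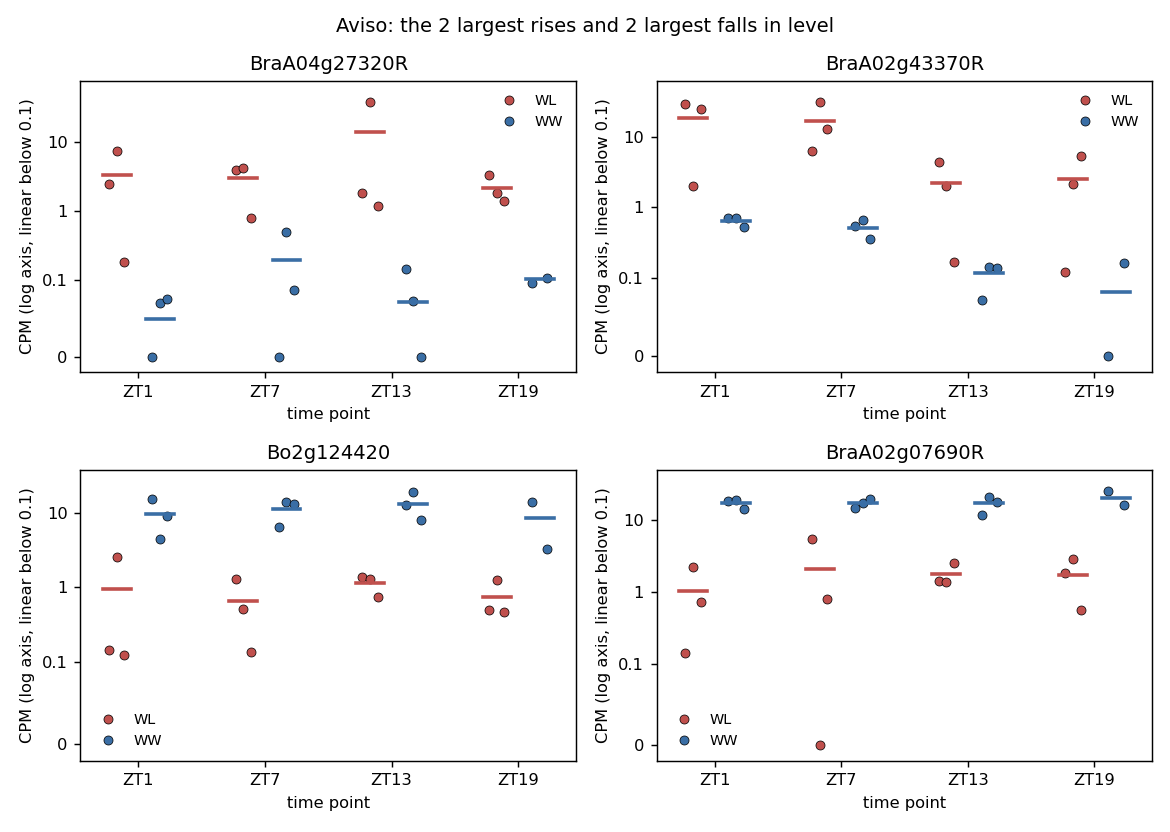
CPM (log axis, linear below 0.1) of the 2 level genes with the largest rise and the 2 with the largest fall in each Av library, WL (red) left of WW (blue) at each time point, with the group mean as a bar. BraA04g27320R and BraA02g43370R had at most 0.504 and 0.709 CPM in WW libraries, and Bo2g124420 and BraA02g07690R had at most 2.53 and 5.51 CPM in WL libraries.

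The level genes were not all strongly expressed. Their mean over the 23 libraries had a median of 5.23 CPM and lay between 0.534 and 105 CPM, and 3 of the 48 had a mean below 1 CPM. For 6 of them the 12 WL and the 11 WW libraries did not overlap at all, 4 higher and 2 lower in WL, where 0.0186% of all genes tested showed such a gap. Within single time points, 42 of the 48 had WL and WW libraries that did not overlap at 3 or more of the 4 time points, and 23 at all 4. Of all genes tested, 9.01% did not overlap at ZT1, 15.5% at ZT7, 11.7% at ZT13 and 19.1% at ZT19, where only 2 WW libraries were compared. These gaps are part of what made the genes pass and describe them without adding to the test.

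The direction of each level gene was the same at all 4 time points, which held for 48 of the 48 and for 23.8% of all genes tested. The level genes were chosen by the mean of these same 4 differences, which favours a shared direction, so this count only describes them. The size was not the same at all time points. For 34 of the 48 genes the largest difference was at ZT7, for 7 at ZT1, for 3 at ZT13 and for 4 at ZT19. Differences were also larger at ZT7 over all genes with a mean of at least 1 CPM, where 11.9% differed by more than 2-fold. At ZT1, ZT13 and ZT19 it was 8.29%, 8.96% and 5.51%, and ZT19 had only 2 WW libraries. Whether the level genes exceed the other genes in this was not tested, and the order of the time points moved with single libraries. The median difference of the 22 rises was 2.19, 2.32, 1.64 and 1.52 (log2) at ZT1, ZT7, ZT13 and ZT19. That of the 26 falls was -1.64, -2.30, -1.42 and -1.04 (log2) in the same order. Both groups of genes thus had their largest median difference at ZT7 and their smallest at ZT19.

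**Figure D2:**
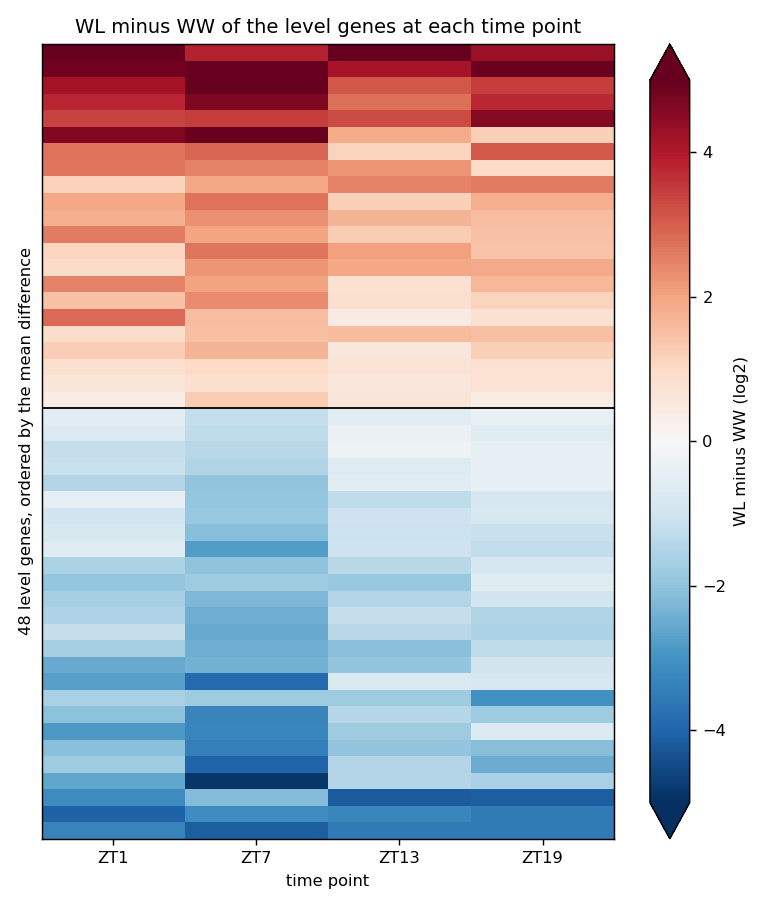
Difference between WL and WW (log2, red for higher in WL and blue for lower) of the 48 level genes at each time point, 1 line per gene, ordered by the mean difference, with the 22 rises above the black line and the 26 falls below it. The sign is the same across each line, and in 34 of the 48 genes the strongest difference is at ZT7.

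Both subgenomes took part. Of the level genes, 22 were BnA genes, 10 higher and 12 lower in WL, and 26 were BnC genes, 12 higher and 14 lower. BnA genes made up 46.3% and BnC genes 53.5% of the genes tested, so 0.0881% of the BnA genes and 0.0901% of the BnC genes were called. They were spread over 17 of the 19 chromosomes, and no chromosome held more than 5 of them.

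Bo2g052430 and Bo2g052440, neighbouring identifiers on chromosome C2, both fell. Whether they are near-identical copies that share reads was not tested. Bo2g052430 had the smallest adjusted p of all genes (0.00133, edgeR), with 20.1 to 55.5 CPM and a median of 29.4 in WL libraries, against 32.8 to 86.6 CPM and a median of 62.5 in WW libraries. The groups did not overlap at 3 of the 4 time points. At ZT19 they did, with 45.0 to 55.5 CPM in WL libraries and 54.5 to 80.8 CPM in WW libraries. At ZT7 alone, its WL libraries had 25.3, 20.1 and 20.6 CPM and its WW libraries 54.3, 70.1 and 62.5 CPM. The difference over the day was -0.92 ± 0.10 (log2, SE), and for Bo2g052440 it was -0.81 ± 0.10 (log2, SE, adjusted p = 0.00292, edgeR).

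The looser set of 819 genes held one group that stood apart. Identifiers that were placed on no chromosome made up 184 of the 819, and 180 of these 184 were lower in WL. Among BnA and BnC identifiers on no chromosome 9.77% passed at 0.05, against 1.22% of the identifiers on a chromosome, where 312 were higher and 323 lower in WL. None of the 48 level genes was of this kind. Of the 184, 179 were BnA or BnC identifiers and 5 belonged to neither subgenome. The share of counts on BnA and BnC identifiers on no chromosome differed little. It was 1.57 to 2.55% with a median of 1.81% in WL libraries, against 1.65 to 3.47% with a median of 1.86% in WW libraries. The share on identifiers of neither subgenome was lower in WL, with 0.00563 to 0.0375% and a median of 0.0106% in WL libraries, against 0.0145 to 0.494% and a median of 0.0517% in WW libraries. The highest share of either kind was that of replicate 3 of WW at ZT13, the shallowest library. Without that library 280 genes passed at 0.05, 130 higher and 150 lower in WL, and 8 of them were on no chromosome. Leaving out other single libraries gave between 2 such identifiers, without replicate 2 of WW at ZT19, and 337, without replicate 2 of WL at ZT1. The surplus of falls among the 819 genes therefore rested on identifiers whose calls depended on single libraries, and what these identifiers have in common was not tested.

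The second question was whether WL and WW plants differed at single times of day. With 3 plants against 3, or 2 at ZT19, 0 genes passed at ZT1, ZT7, ZT13 or ZT19 (edgeR, adjusted p of 0.01 or less, 0% of those tested each). At an unadjusted p of 0.05 or less there were 3618 genes at ZT1, 6583 at ZT7, 3996 at ZT13 and 1677 at ZT19. These counts and their order moved with single libraries. Without replicate 2 of WL at ZT1 there were 9128 at ZT1 against 7366 at ZT7, and without replicate 3 of WW at ZT7 there were 3968 at ZT7. At ZT1 there were 2381 and 2148 without replicate 1 and 3 of WW, and at ZT13 there were 2028 without replicate 2 of WL and 2610 without replicate 3 of WW. DESeq2 called 10, 343, 21 and 6 genes at these times, and limma on the deposited log2 FPKM called 2, 5, 0 and 1. At an adjusted p of 0.05, edgeR called 22 genes at ZT7 (0.0408%), 5 higher and 17 lower in WL, and none at the other times. ZT7 was the time with the most genes past a threshold by each of the 3 tools with all libraries.

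**Figure D3:**
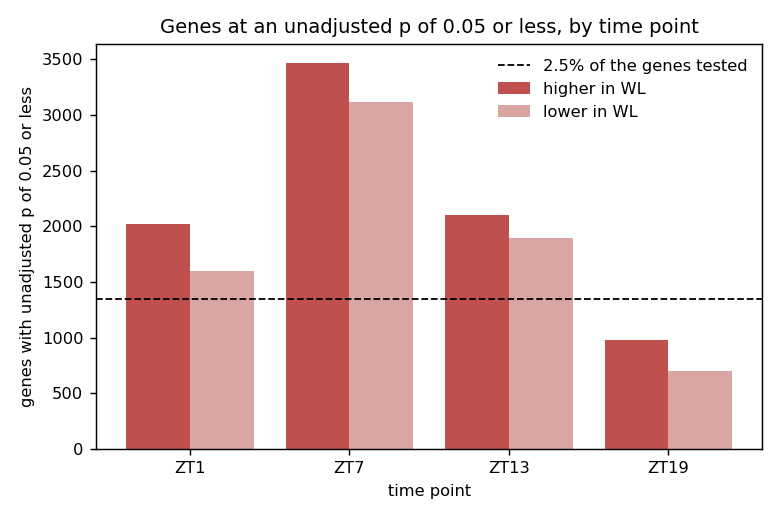
Number of genes with an unadjusted edgeR p of 0.05 or less at each time point, higher (dark) or lower (light) in WL, with a dashed line at 2.5% of the 53880 genes tested. ZT7 has 3465 genes higher and 3118 lower, while ZT19, with 2 WW libraries, has 976 and 701.

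With all libraries, the sizes of the differences were also largest at ZT7. Among 45247 genes with a mean of at least 1 CPM, the number that differed by more than 2-fold was 3749 at ZT1, 5376 at ZT7, 4056 at ZT13 and 2494 at ZT19. Across these genes, the differences at any pair of time points correlated weakly, with Pearson's r between 0.17 for ZT1 and ZT13 and 0.43 for ZT1 and ZT7. These are correlations across genes, which are not independent, and the time points share no library.

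At ZT7 the gene with the smallest p among the rises was Bo1g007650, on chromosome C1. Its WL libraries had 53.0, 70.3 and 82.7 CPM and its WW libraries 31.1, 25.4 and 30.0 CPM. All WL plants were higher, and the difference was 1.25 ± 0.20 (log2, SE, adjusted p = 0.0297, edgeR), which did not pass 0.01. At ZT1 the leading rise was Bo3g017130, on chromosome C3, with 3.42, 2.53 and 1.76 CPM in WL libraries and 0.193, 0.423 and 0.452 CPM in WW libraries. Its difference at ZT1 was 2.84 ± 0.47 (log2, SE, adjusted p = 0.311, edgeR). Over the whole day both were level genes, with differences of 0.65 ± 0.10 and 1.38 ± 0.22 (log2, SE, adjusted p = 0.00682 each, edgeR).

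At ZT13 and ZT19 the leading genes did not come close to the threshold. In the ZT13 libraries, Bo7g030590 on chromosome C7 had 20.5, 46.5 and 10.96 CPM in WL libraries and 7.27, 6.65 and 9.12 CPM in WW libraries. BraA03g36190R on chromosome A03 had 5.06, 3.18 and 4.75 CPM in WL libraries and 8.41, 25.1 and 30.7 CPM in WW libraries, and unlike the level genes it was slightly higher in WL at ZT1, by 0.34 (log2). Neither pair of groups overlapped, with differences of 1.77 ± 0.34 and -2.30 ± 0.45 (log2, SE, adjusted p = 0.639 each, edgeR). At ZT19, Bo3g103020 on chromosome C3 had 1.09, 1.37 and 0.467 CPM in WL libraries and 10.0 and 5.81 CPM in WW libraries. Its difference there was -3.02 ± 0.63 (log2, SE, adjusted p = 1, edgeR), and over the day it was a level gene with -2.05 ± 0.30 (log2, SE, adjusted p = 0.00391, edgeR). Bo1g005030 on chromosome C1 had 74.8, 67.9 and 73.2 CPM in WL libraries at ZT19 and 37.4 and 37.9 CPM in WW libraries, a difference of 0.93 ± 0.19 (log2, SE, adjusted p = 1, edgeR).

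The third question was whether the WL minus WW difference of a gene changed between times of day, which is a change of its diel pattern. 0 genes passed this test (edgeR, 3 degrees of freedom, adjusted p of 0.01 or less, 0%), against 2204 at an unadjusted p of 0.05 or less, which was 1455 without replicate 3 of WW at ZT7 and 4562 without replicate 2 of WL at ZT1. DESeq2 and limma also called 0. The smallest p among genes whose largest difference was a fall belonged to Bo9g171660, on chromosome C9. At ZT7 it had 56.5, 75.1 and 62.2 CPM in WL libraries and 193, 211 and 161 CPM in WW libraries, while at ZT19 it had 116, 96.1 and 147 CPM in WL libraries and 97.7 and 109 CPM in WW libraries. The groups were apart at ZT7 and overlapped at ZT19, with differences of -1.55 and 0.21 (log2, adjusted p of the pattern = 1, edgeR). Bo9g183350, also on C9, had almost no expression at ZT19 in either group, with 1.70, 2.69 and 2.38 CPM in WL libraries and 0.67 and 1.09 CPM in WW libraries, and 117 to 168 CPM at ZT7 across both. Its difference was 1.36 at ZT19 and -0.16 at ZT7 (log2, adjusted p of the pattern = 1, edgeR).

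Annotation lists were used to place the response in known processes. The 13 lists came from the part of the study's annotation sheet held here and cover abiotic stress, autophagy, defence and carbohydrate metabolism, with 332 of their 337 genes tested. The genes stand on that sheet because of their response in accessions of this series, and those of the temperature list because of Av itself. None of the 332 genes passed at 0.01 over the day (edgeR), while DESeq2 called 5, 1 in each of 5 lists, and 58 (17.5%) had an unadjusted p of 0.05 or less against 14.9% of all genes tested. At an adjusted p of 0.05, edgeR called 3 of them, which are named here after their values were seen. Bo9g075920, listed under systemic acquired resistance, averaged 0.555 CPM in WL and 1.90 CPM in WW libraries and fell by 2.05 (log2, adjusted p = 0.0209, edgeR). BraA02g10120R, listed under carbohydrate biosynthesis, averaged 69.6 CPM in WL and 41.3 CPM in WW libraries (0.73, log2, adjusted p = 0.0477, edgeR). Bo5g122620, listed under carbohydrate catabolism, averaged 13.0 CPM in WL and 9.11 CPM in WW libraries (0.49, log2, adjusted p = 0.0325, edgeR).

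Cell wall polysaccharide genes, which make or modify glucans, pectins and xylans of the wall, leaned to lower values in WL. Over the day 11 of the 54 tested had a positive difference (20.4%, against 54.0% of all genes tested), and the median was -0.33 (log2) against 0.02 for all genes. Before adjustment 13 genes passed 0.05 (24.1%, against 14.9% of all genes), and these were lower without exception. Without replicate 1 of WW at ZT19 the median over the day was -0.22 (log2). None passed an adjusted p of 0.05. The largest of the differences, that of BraA09g09170R, was -0.71 ± 0.22 (log2, SE, adjusted p = 0.112, edgeR), with means of 73.6 CPM in WL and 118 CPM in WW libraries. At ZT1, ZT7, ZT13 and ZT19 the median was -0.13, -0.41, -0.35 and -0.27 (log2). Its direction at ZT1 and ZT19 rested on single libraries. At ZT1 it was 0.07 without replicate 1 and -0.62 without replicate 2 of WL, and at ZT19 it was 0.03 without replicate 1 of WW and -0.11 without replicate 3 of WL (log2). At ZT7 and ZT13 it was negative without any 1 library.

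Genes of central sugar metabolism leaned the other way. In the glucose list, 23 of 26 genes had a positive difference (88.5%, against 54.0% of all genes tested) with a median of 0.31 (log2), and 8 genes (30.8%, against 14.9% of all genes) passed an unadjusted p of 0.05, 7 higher and 1 lower. In the glyceraldehyde-3-phosphate list, whose genes work in glycolysis and in carbon fixation, 8 of 10 were positive with a median of 0.29 and 5 had an unadjusted p of 0.05 or less, all higher. The lists share some genes. Glucose genes had a median of -0.01 at ZT1, 0.53 at ZT7, 0.24 at ZT13 and 0.27 at ZT19 (log2). Replicate 1 of WL at ZT7 had the highest CPM of its time point in 19 of the 26 genes, and without it the ZT7 median was 0.19 and the median over the day 0.16 (log2). Without replicate 1 of WL at ZT13 the ZT13 median was 0.12, and without replicate 2 of WW at ZT19 the ZT19 median was -0.04 (log2). BraA05g39210R, listed under glyceraldehyde-3-phosphate, averaged 24.1 CPM in WL and 15.4 CPM in WW libraries, a difference of 0.61 ± 0.15 (log2, SE, adjusted p = 0.0524, edgeR), just outside the looser threshold.

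Genes listed as regulators of the response to water deprivation did not differ over the day. 7 of the 9 were positive with a median of 0.14 (log2), and none reached an unadjusted p of 0.05. At ZT1 all 9 were higher in WL, with a median of 1.07 (log2), but this rested on 1 plant. Replicate 3 of WL at ZT1 was above the other 5 libraries of that time in 9 of 9 genes. For BraA08g12680R the WL values at ZT1 were 2.99, 1.26 and 29.2 CPM and the WW values 2.58, 4.80 and 2.03 CPM, and for BraA09g05890R they were 23.7, 5.99 and 37.9 CPM in WL and 8.37, 8.75 and 8.96 CPM in WW. Replicate 2 of the same group lay below all 3 WW libraries in 6 of the 9 genes. Without replicate 3 the ZT1 median was -0.30 with 3 of 9 genes positive, and the median over the day was -0.26. The remaining members had differences over the day between -0.35 for Bo1g017970 and 0.51 for Bo9g010710, with Bo7g105520 at 0.26, BraA03g46990R at 0.26, Bo8g049770 at 0.13, Bo3g068870 at 0.03 and BraA03g37420R at -0.07 (log2).

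The same plant stood out in the cell death and defence lists. At ZT1 the 41 cell death genes had a median of 0.87 and the 117 defence and immunity genes a median of 0.32 (log2). Replicate 3 of WL had the highest CPM of the 6 libraries in 32 of 41 and in 76 of 117 of these genes. Without it the ZT1 medians were -0.02 and -0.28 (log2), and the medians over the day were 0.09 and -0.06, against 0.31 and 0.16 with all libraries. Without replicate 2 of WW at ZT19 the cell death median over the day was 0.52 (log2). Replicate 3 of WL at ZT1 had a total count of 16086385, near the low end of the WL libraries, and a median correlation with the other Av libraries of 0.855, where the range was 0.854 to 0.909. The part of these in the result was not tested. The ZT1 differences of the 3 lists thus rested on 1 WL plant.

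The 4 genes of the temperature list were on average higher in WL from ZT7 on. The study chose this list on these libraries, so its direction is not independent evidence. Bo8g101580 and BraA09g53180R, with a strong diel cycle, had 976, 594 and 1347 CPM and 1358, 834 and 2044 CPM in WL libraries at ZT7, against 501, 485 and 405 CPM and 835, 639 and 618 CPM in WW libraries. For Bo8g101580 the groups did not overlap, and for BraA09g53180R replicate 2 of WL lay just under the highest WW library. At ZT1, where both are low, Bo8g101580 had 4.70, 10.7 and 32.4 CPM in WL libraries and 23.7, 30.4 and 15.4 CPM in WW libraries. Over the day the differences were 0.51 ± 0.26 for Bo8g101580, 0.44 ± 0.26 for BraA09g53180R, 0.78 ± 0.34 for Bo4g120250 and 0.79 ± 0.20 for BraA09g39680R (log2, SE, adjusted p = 0.385, 0.464, 0.279 and 0.0557, edgeR). At ZT7 each was at least 1.02 and at ZT1 each was 0 or below (log2, from -0.69 to -0.04). Bo4g120250 had 21.4 to 172 CPM in WL libraries at ZT7, so its lowest WL library lay under all WW libraries (23.9 to 57.0 CPM). For BraA09g39680R the groups did not overlap at ZT7, with 5.66 to 17.75 CPM in WL and 3.42 to 5.43 CPM in WW libraries.

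The cold list showed no common direction over the day, with differences of -0.37 for BraA05g15390R, -0.03 for BraA08g22810R, 0.03 for Bo7g114970 and 0.00 for BraA02g42080R (log2). All 4 were higher in WL at ZT7 and lower at ZT19, with medians of 0.38 and -0.49 (log2), and 1 of them had an unadjusted p of 0.05 or less at ZT7. Without replicate 2 of WL at ZT7 the median there was 0.12 with 2 of 4 genes positive, and without replicate 2 of WW at ZT19, the highest in 4 of 4 genes, the ZT19 median was -0.19 (log2). The 38 autophagy genes had a median of -0.06, the 6 leaf senescence genes -0.07, the 7 disaccharide transport genes -0.20, the 64 carbohydrate biosynthesis genes -0.01 and the 26 carbohydrate catabolism genes 0.18 (log2). Before adjustment, carbohydrate biosynthesis had 5 genes higher and 12 lower past 0.05 (26.6%), and carbohydrate catabolism 3 higher and 3 lower (23.1%), against 14.9% of all genes tested. Without replicate 1 of WL at ZT7 the medians of these 2 lists were -0.18 and 0.07 (log2). Over all alternatives the leaf senescence median ran from -0.51 to 0.75, that of disaccharide transport from -0.52 to -0.08 and that of autophagy from -0.12 to 0.02 (log2), so that the direction held for disaccharide transport alone of these 3.

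**Figure D4:**
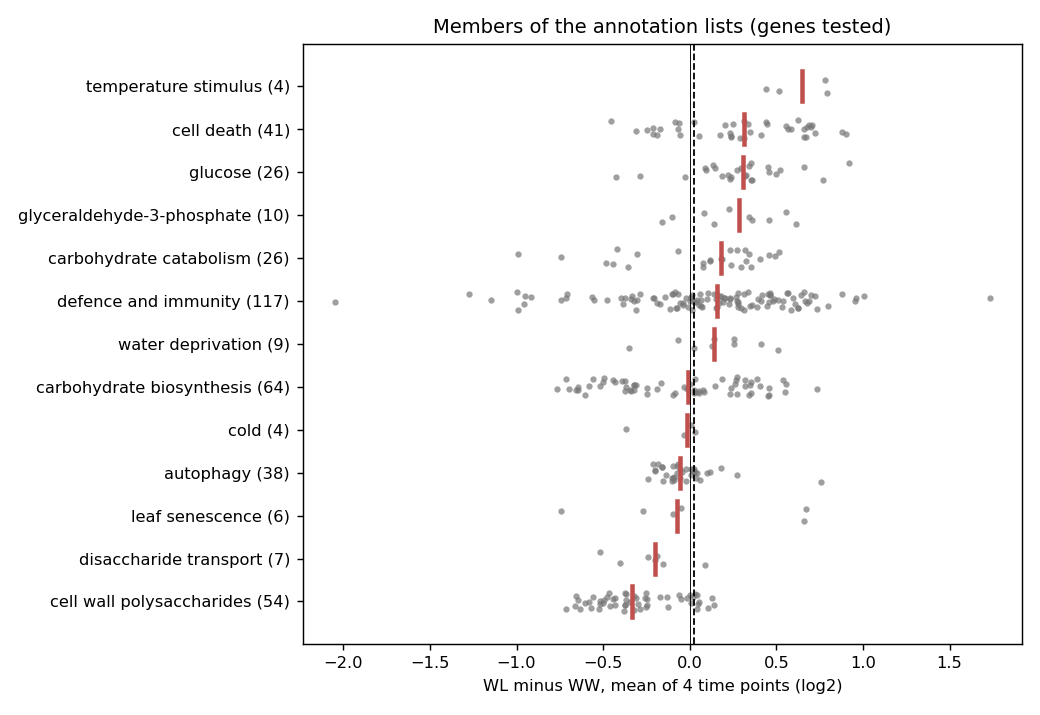
Difference between WL and WW averaged over the 4 time points (log2) for each tested gene of the 13 annotation lists (points), with the list median (red bar) and the median of all genes tested (dashed line, 0.02), and the number of genes tested in parentheses. The medians run from -0.33 for cell wall polysaccharides to 0.31 for cell death and glucose and 0.65 for the 4 genes of the temperature list.

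The last question was where the Av response differed from that of the other 15 accessions, tested as the Av difference minus the mean of the other differences in 1 fit of all 354 libraries. Among 67997 genes, 1 passed (edgeR, adjusted p of 0.01 or less, 0.00147%), 6 passed at 0.05 and 6.73% had an unadjusted p of 0.05 or less. For 23062 genes, 13 of the 48 level genes among them, at least 1 group of 1 accession, treatment and time point had no count, and such a difference had no usable standard error. In these 13 level genes the unadjusted p was 0.625 or more (edgeR) whatever the size of the difference, so for them the test gives no answer. The fit that assumes no difference did not converge for 19803 genes. The numbers of genes that passed thus do not speak for all 67997 genes, and 44935 had no empty group. The gene that passed at 0.01 was Bo2g124420. Its difference was -3.64 in Av and -0.78 in the mean of the others (log2), and the Av difference minus that of the others was -2.86 ± 0.41 (log2, SE, adjusted p = 1.81e-06, edgeR). The SE and p reflect the spread of libraries and not that among accessions. The gene also fell in Ne (-2.28), Al (-2.04), Qu (-1.60), Ab (-1.45), Ze (-1.39) and Br (-1.29, log2). Other negative differences lay between -0.67 in Ca and -0.10 in Gr, and Se (0.23) and Yu (0.12) were positive (log2).

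The level of Bo2g124420 varied widely among accessions in both treatments. Scaled over all accessions, its median in Av was 0.626 CPM in 12 WL libraries and 12.8 CPM in 11 WW libraries. In Ne, the accession with the next largest fall (-2.28, log2), it was 0.958 CPM in WL and 6.19 CPM in WW libraries. In Yu, where the difference was 0.12 (log2), it was 6.69 CPM in WL and 6.51 CPM in WW libraries. In DH20, which had the highest WW median, it was 19.0 CPM in WL and 20.7 CPM in WW libraries. In WL plants the medians thus spanned 0.626 CPM in Av to 19.0 CPM in DH20, while in WW plants they spanned 1.80 CPM in Br to 20.7 CPM in DH20, with Av in between.

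The other level genes of Av changed in the same direction elsewhere. The mean difference of the other 15 accessions had the sign of the Av difference for 22 of 22 rises and 26 of 26 falls, compared with 65.3% and 65.7% of all genes tested in Av. At least 12 of the 15 accessions had that sign for 22 of the 22 rises and 25 of the 26 falls, compared with 33.1% and 30.9% of all genes. All 15 accessions had the sign of Av for 13 rises and 19 falls. These rises include BraA01g01150R, whose fitted difference in Ab and in Yu was 2.56e-15 (log2), which is no difference. The Av differences had a median of 1.83 for the rises and -1.67 for the falls, against 0.96 and -0.96 in the mean of the others (log2). The level genes were chosen by their Av values, so a larger value in Av is a description. In Av the fitted difference was the largest of all 16 accessions for 11 rises and 5 falls, counting the 13 genes with an empty group.

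The other 3 leading genes are among the 13 with at least 1 group at no count, so their differences across accessions depend on how the fit treats a 0, have no usable standard error and set no firm order. The fitted difference of BraA02g43370R was 4.72 in Av, against at most 3.67 in Mu (log2). That of BraA04g27320R was 5.38 in Av, against 2.02 in Al to 5.61 in Br, and that of BraA02g07690R was -3.47 in Av, against -6.56 in St to -0.67 in Ca (log2). Over all genes, Av was not among the accessions with large differences, since 7053 genes differed by more than 2-fold over the day in Av, against 5876 in Ze to 13696 in Ca, with no test of this order.

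**Figure D5:**
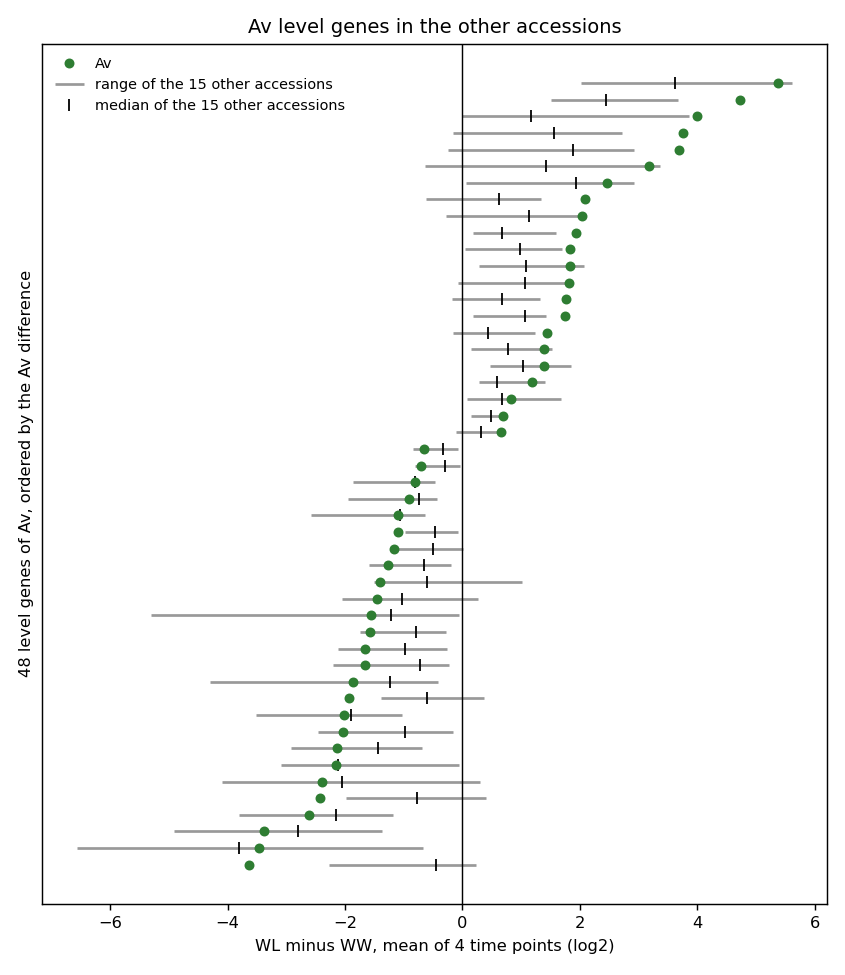
Difference between WL and WW averaged over the 4 time points (log2) for the 48 level genes, in Av (green points) and in the 15 other accessions (range as a grey line, median as a black tick), ordered by the Av difference, with 13 genes whose values include a group at no count. Bo2g124420, at the bottom, is the 1 gene that passed the test of Av against the others, at -3.64 against a range of -2.28 to 0.23.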

How the data were processed

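RNA was sequenced as paired-end reads of stranded mRNA libraries. The deposited tables hold estimated counts per identifier: the authors trimmed reads with Trimmomatic 0.33, mapped them with HISAT2 2.1.0 (versions from the submitters' processing notes) to the joined genomes of *B. rapa* and *B. oleracea*, and ran featureCounts, in which a read that aligned to several places was divided among them. Of the Av values above 0, 36.1% are not whole. A second deposited table holds log2 FPKM, made by the authors with edgeR from the libraries of 1 accession and limited to genes that varied. No reference sequence was used, and 0 of 106126 identifiers matched the table of gene names at hand. Identifiers on BnA number 45540, on BnC 59225 and on neither 1361.

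Counts were rounded and fitted with edgeR 4.0.16 in R 4.3.3 (filterByExpr with a minimum count of 10, TMM, glmQLFit and glmQLFTest), with 8 group means and no replicate block. Contrasts were WL minus WW averaged over the 4 time points, at each time point, and the interaction of water and time point. Genes were called at a Benjamini-Hochberg adjusted p of 0.01 or less over all 53880 genes tested. For the comparison with other accessions, the same test was computed on all group means, with the dispersion trend taken from every 40th gene (1700 genes). Its log10 p differed by at most 0.0055 from that of glmQLFTest given the same trend, in 400 genes. How far the use of every 40th gene moved p was not tested. Alternatives were RLE size factors, no filter, an adjusted p of 0.05, DESeq2 1.42.0, limma 3.58.1 with trend on the log2 FPKM, a replicate block, an imputed WW library at ZT19, and leaving out replicates or libraries. Leaving out identifiers on no chromosome was added after the data were seen.

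The annotation lists and the genes named were chosen with earlier results of these data known. Named were, for the level, the 2 called genes with the largest rise and the 2 with the largest fall, with a mean CPM of at least 1 and 1 direction at all 4 time points, and for a contrast with no call the rise and the fall with the smallest p, plus the members of the water deprivation, cold and temperature lists. Other genes named were chosen after their values were seen.

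On simulated Av counts for 53880 genes, the level test in edgeR recovered 43 of 100 genes changed by 1 and 86 of 100 changed by 2 (log2) with 1 false call, DESeq2 recovered 66 and 97 with 18 false calls, and limma 44 and 88 with 1. At ZT7, edgeR recovered 0 of 100 changed by 1 and 40 of 100 changed by 2. The comparison with the other accessions was simulated for 6000 genes with the same dispersion for all. It recovered 21 of 100 changed by 1 and 97 of 100 changed by 2 (log2), so smaller differences of Av could be missed. For the pattern, edgeR recovered 76 of 100 genes changed by 3 (log2) at ZT1 and by as much in the other direction at ZT13. DESeq2 recovered 88 of them with 29 false calls. Smaller changes of the pattern were not simulated, so the test's power for them is not known.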

Additional observations from a re-analysis of the deposited data

Results flagged for a closer look

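The difference of Bo2g124420 between WL and WW plants, averaged over the time points, was not the same in Av as in the mean of the other accessions. It was -3.64 in Av and -0.78 in the mean of the other 15 accessions, so that the 2 differed by -2.86 ± 0.41 (log2, SE, adjusted p = 1.81e-06, edgeR). The SE and p reflect the spread of libraries and not that among the 15 accessions, whose differences ran from -2.28 in Ne to 0.23 in Se (log2). The sign was that of Av in 13 of them. The 12 WL libraries of Av had 0.117 to 2.53 CPM and the 11 WW libraries 3.23 to 18.9 CPM on the scale of all accessions. Without replicate 1 the adjusted p was 0.0903.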

How the results depend on the processing

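The number of level genes depended on the test and the libraries. It was 50 with RLE size factors and 55 with no filter, 819 at an adjusted p of 0.05, 1341 with DESeq2 (534 higher and 807 lower in WL), 27 with limma (10 and 17) and 184 with the imputed library (93 and 91). The replicate numbers did not pair the libraries (median r of -0.073 over 77 pairs with the same number), and the replicate block gave 22 level genes (10 and 12), 19 of them among the 48. Leaving out a replicate number or a library gave 0 to 172, with 0, 0 and 1 without replicate 1, 2 and 3, and 4 without either WW library of ZT19. The count also moved by over 1.5 times without replicate 1, 2 or 3 of WL at ZT1 (24, 172 and 106), replicate 1 of WL at ZT7 (137), replicate 2 or 3 of WL at ZT19 (8 and 18), replicate 1 or 3 of WW at ZT1 (8 and 30) and replicate 3 of WW at ZT7 (15). All 48 kept their direction in every alternative that gave a value for them, but 8 were called in at least 20 of the 23 fits without 1 library and 1 in all. Without identifiers on no chromosome, 56 genes passed at 0.01 and 476 at 0.05 (231 and 245).

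At ZT1, ZT13 and ZT19 DESeq2 called 10, 21 and 6 genes and limma 2, 0 and 1. At ZT7 the count was 22 at an adjusted p of 0.05, 343 with DESeq2, 5 with limma and 5 with the imputed library, and 0 to 81 without single replicates or libraries, with 10 and 81 without replicate 1 and 2 of WL at ZT7 and 2 without replicate 3 of WW at ZT13. The replicate block changed no call at single time points or of the pattern. In the comparison with other accessions, 6 genes passed at 0.05, 18 with limma on log2 CPM and 0 to 2 without a replicate number, 0 without replicate 1, and the replicate block was not run there. The BnA share of counts, 0.23 percentage points higher in WL, was between -0.089 without replicate 1 and 0.44 without replicate 3. With 3 plants a group, the single time points could show only large changes, and the lists rest on the part of the annotation held.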
